A study of Mus musculus with 4 samples.

Results

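The transcripts described here are 35 genes of the NF-kB pathway, listed by name: the subunits of the transcription factor, its inhibitors, the kinases and adaptors above it, its feedback genes and the adhesion target Icam1. All 35 had a row among the 23356 gene rows, and all 35 were tested by the authors. The cells were CD4 T helper 17 (Th17) cells, the T cells that make IL-17, grown in vitro for 48 h from wild-type C57BL/6 mice of 6 to 8 weeks. Of 4 RNA-seq libraries, 2 came from cultures with no treatment, titled as vehicle, and 2 from cultures given recombinant murine serum amyloid A1 (SAA1), labelled as 2 ng/ml. The comparison asks which transcripts differ when SAA1, an acute-phase protein made by liver and gut epithelium, is added to Th17 cells. Nothing in the labels says whether the 2 libraries of a group came from separate mice or cultures. The p-values therefore rest on these libraries alone, and any spread between them may be technical.

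NF-kB is a family of dimeric transcription factors that are held in the cytoplasm by IkB proteins. Receptors for antigen, for TNF family ligands and for IL-1 or microbial products activate the IkB kinase (IKK) complex, IkB is degraded, and the freed dimers enter the nucleus. Among the genes they induce are their own inhibitors, such as IkBa and A20, which end the response. In T cells the antigen receptor reaches IKK through a complex that holds BCL10 and MALT1, and REL and the nuclear protein IkBz have known roles in Th17 differentiation.

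Transcripts of the 35 NF-kB genes ranged from 7.66 to 354.3 FPKM in Th17 cells with vehicle and, with 1 exception, did not pass the test for a difference with SAA1. Ikbke, which encodes the IKK-related kinase IKK-epsilon (IKKe), fell from 15.8 to 11.2 FPKM, a log2 ratio of -0.50 ± 0.21 (the error is the SE that the deposited statistic implies), and was the only member called in the authors' deposited table (adjusted p 0.018, Cuffdiff). FPKM counts sequenced fragments per kilobase of transcript, scaled to sequencing depth, and a gene is called at an adjusted p under 0.05 over all tested genes. Of 35 members 0 were called higher, against 3.97% of 11481 tested genes, and 1 was called lower (2.86%), against 2.55%. In either direction 6.52% of tested genes were called. Among 7387 tested genes at or above the lowest member's vehicle level, 130 were called higher and 174 lower, or 4.12% in either direction. In bulk RNA, fewer cells of a type and less RNA per cell cannot be told apart. Each group has a single value from its 2 libraries, so no value per library, no overlap between groups and no depth can be given.

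Several members are known targets of NF-kB themselves, so the bases before their start sites were searched for the sequence that NF-kB dimers bind. Windows of 250 bases before each RefSeq start (GRCm38.p6, which is mm10) were read on both strands for the kB consensus, and overlapping matches were counted as 1. The table of RefSeq windows used here matched 30 of the 35 members, and Ikbkb, Malt1, Nfkb1, Nfkbiz and Relb were not analysed for this. A match was present for 12 of these 30 genes (40%), against 8.23% of all 27025 genes in the same table and 10.6% of 7867 genes with at least 1 FPKM here. The windows of 4 members are shown with matches in capitals, as examples of an inhibitor, a subunit and feedback genes. They were picked by name from the 12 genes with a match. Ikbke is shown as the member that was called, and the chemokine gene Ccl20, which is no member, as a target that rose.
Nfkbia, chr12:55492648-55492897, minus strand: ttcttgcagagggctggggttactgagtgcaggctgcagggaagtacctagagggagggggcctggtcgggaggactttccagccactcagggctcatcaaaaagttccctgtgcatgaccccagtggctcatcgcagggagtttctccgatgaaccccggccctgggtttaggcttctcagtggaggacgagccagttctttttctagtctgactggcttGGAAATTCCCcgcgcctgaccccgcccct
Nfkb2, chr19:46304487-46304736, plus strand: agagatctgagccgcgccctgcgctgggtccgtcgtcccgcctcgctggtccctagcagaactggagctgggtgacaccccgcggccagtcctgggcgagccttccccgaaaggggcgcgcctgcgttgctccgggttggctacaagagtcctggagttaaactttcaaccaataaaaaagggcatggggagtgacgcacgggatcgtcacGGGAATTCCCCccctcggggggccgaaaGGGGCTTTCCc
Tnfaip3, chr10:19015411-19015660, minus strand: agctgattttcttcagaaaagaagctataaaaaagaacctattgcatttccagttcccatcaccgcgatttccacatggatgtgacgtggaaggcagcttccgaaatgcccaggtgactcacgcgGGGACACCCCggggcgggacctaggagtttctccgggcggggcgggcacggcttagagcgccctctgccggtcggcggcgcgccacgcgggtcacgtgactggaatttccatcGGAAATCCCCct
Tnip1, chr11:54962941-54963190, minus strand: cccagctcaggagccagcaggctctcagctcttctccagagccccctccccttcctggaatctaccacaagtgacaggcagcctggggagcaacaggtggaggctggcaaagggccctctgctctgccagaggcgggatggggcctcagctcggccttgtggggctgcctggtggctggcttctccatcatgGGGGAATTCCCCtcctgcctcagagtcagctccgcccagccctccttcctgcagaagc
Ikbke, chr1:131279564-131279813, minus strand: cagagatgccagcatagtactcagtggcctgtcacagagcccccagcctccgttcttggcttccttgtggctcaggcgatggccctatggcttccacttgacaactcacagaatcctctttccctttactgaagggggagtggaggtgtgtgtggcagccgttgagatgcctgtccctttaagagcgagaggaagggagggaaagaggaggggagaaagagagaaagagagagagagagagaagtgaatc
Ccl20, chr1:83116516-83116765, plus strand: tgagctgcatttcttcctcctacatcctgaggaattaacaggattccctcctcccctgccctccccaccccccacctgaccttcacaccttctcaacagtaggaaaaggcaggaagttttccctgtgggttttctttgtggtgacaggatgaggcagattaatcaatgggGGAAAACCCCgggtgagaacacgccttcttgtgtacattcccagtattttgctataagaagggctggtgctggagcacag
The Nfkbia match began 29 bases before the start, and those of Nfkb2 39 and 11 bases before the first of its 3 starts. Tnfaip3 had matches 125 and 12 bases before the outer of its 2 starts, and Tnip1 had 1 match 58 bases before, and the Ikbke window had 0. The Ccl20 match began 80 bases before the start. A match is a run of letters and not evidence of binding, and a window without one says nothing about the factor.

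The 12 members with a match were Rel, Nfkb2, Nfkbia, Nfkbie, Nfkbid, Map3k7, Irak1, Traf3, Bcl10, Tnfaip3, Tnip1 and Cyld. None of these 12 was called by the authors' Cuffdiff test (0 of 12 had an unadjusted p under 0.05), where 6.52% of all tested genes were called and 15.8% had such a p. Their log2 ratios ran from -0.20 to 0.18 with a median of 0.02. Their median level was 39.0 FPKM with vehicle and 37.6 with SAA1. The 18 members with a window and no match had a median log2 ratio of 0.03 and included the 1 call, Ikbke. The median of all genes with at least 1 FPKM was -0.02. Matched genes outside the members went both ways. Ccl20 was at 12.7 FPKM with vehicle and 209 with SAA1. Ier3 and Ltb also held a match and were called higher, with log2 ratios of 1.45 and 0.47. Tnip3, a partner gene called lower, had a log2 ratio of -1.33. Among matched genes that were not called, Tlr2 and Tnfrsf25 had ratios of 0.44 and 0.32, and Cxcl10 and Bcl2l1 had ratios of -0.73 and -0.29.

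**Figure D1:**
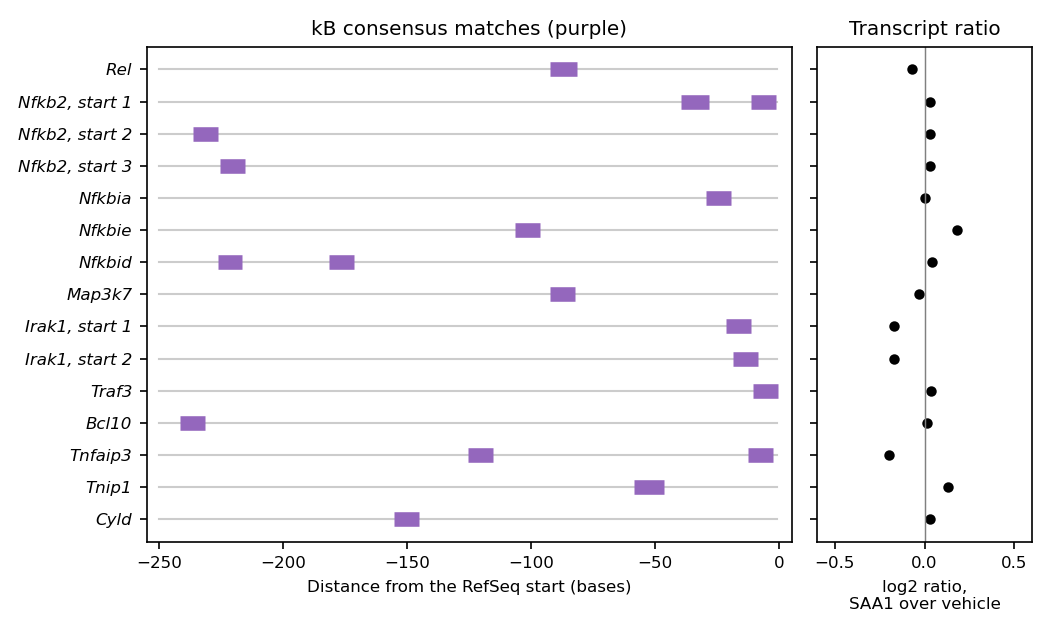
Position of kB consensus matches (purple) in the 250 bases before the RefSeq starts of the 12 members that hold one, in bases from the start. Each start that holds a match has a line. The right panel gives each gene's log2 ratio of FPKM, SAA1 over vehicle, and all 12 genes lie between -0.20 and 0.18.

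The genes of the 5 subunits were expressed at unequal levels, and none of them was called. Nfkb1, which encodes p105 and its product p50, was at 156 FPKM with vehicle and 178 with SAA1. Nfkb2, which encodes p100 and its product p52, was at 143 and 146 FPKM, in a locus shared with the gene row Psd. Rel, the subunit c-Rel that is prominent in lymphocytes, was at 40.5 and 38.6 FPKM. Relb, the partner of p52 in the non-canonical pathway, was at 28.0 and 31.6 FPKM, and Rela, the canonical activating subunit p65, at 22.1 and 22.4. Nfkb1 was thus 7.03 times the level of Rela with vehicle and 7.93 times with SAA1, and Rel was 1.83 and 1.72 times that of Rela. Their log2 ratios between groups ran from -0.07 for Rel to 0.19 for Nfkb1, and by the authors' Cuffdiff test 0 of 5 were called or had an unadjusted p under 0.05.

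Nfkbia was the most abundant member in both groups. It encodes IkBa, the inhibitor that NF-kB induces within minutes to hours and that serves widely as a readout of its activity. It was at 354.3 FPKM with vehicle and 354.9 with SAA1, a log2 ratio of 0.00 ± 0.28 with a 95% interval of -0.55 to 0.55. That interval, which is wider than the deposited p would give, still allows a 1.46-fold difference either way. The row's locus, chromosome 12 from 55280814 to 55492647 on mm10, is shared with Psma6, Ppp2r3c, 1110008L16Rik and Mir1198, so its value is less certain than most. Nfkbib (IkBb) was at 25.4 and 28.1 FPKM, in a locus shared with the gene row Gm6537, and Nfkbie (IkBe) at 22.8 and 25.9. With vehicle Nfkbia stood 13.9 times above Nfkbib and 15.5 times above Nfkbie, and with SAA1 12.6 and 13.7 times above them.

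The nuclear IkB proteins act inside the nucleus on p50 or p52 rather than in the cytoplasm. Nfkbid (IkBNS) was the highest of them, at 78.2 FPKM with vehicle and 80.5 with SAA1. Nfkbiz (IkBz) was at 16.6 and 17.2 FPKM, and Bcl3 at 10.6 and 12.5. Their log2 ratios were 0.04, 0.05 and 0.24, and all 3 had SAA1 values above vehicle without a call by Cuffdiff in the authors' deposited table (0 of 3 had an unadjusted p under 0.05). Nfkbid was 4.72 times the level of Nfkbiz with vehicle and 4.68 times with SAA1.

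**Figure D2:**
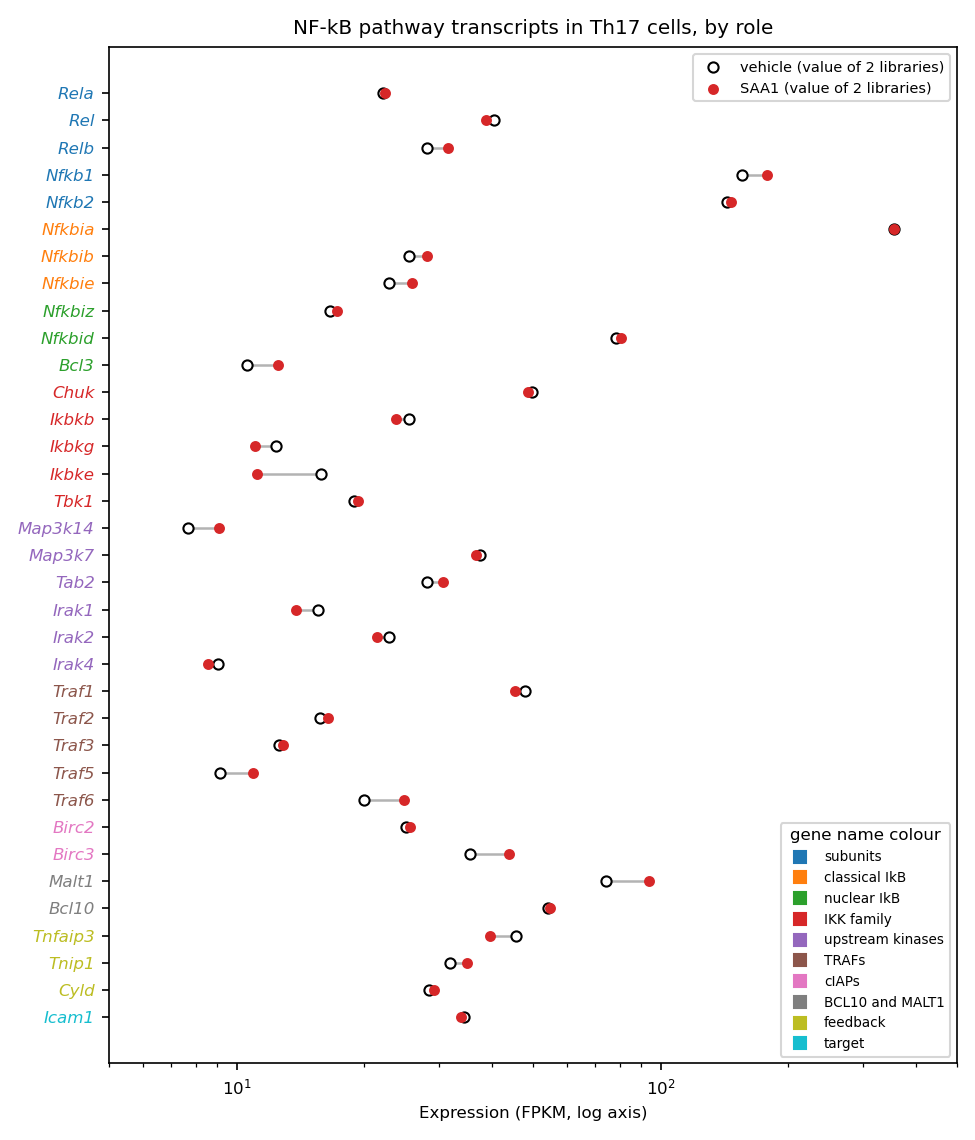
Expression of the 35 members in FPKM (log axis), with the authors' value for vehicle (open circles) and SAA1 (red circles), each from 2 libraries, and gene names coloured by role. Nfkbia is highest at 354.3 and 354.9 FPKM, Map3k14 is lowest with vehicle at 7.66 FPKM, and the widest gap in ratio is that of Ikbke, from 15.8 to 11.2 FPKM.

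The single call lay among the IKK and IKK-related kinases. The canonical complex consists of the kinases IKKa (Chuk) and IKKb (Ikbkb) and the scaffold NEMO (Ikbkg), while IKKe and TBK1 form a related pair known for phosphorylating interferon regulatory factors. Ikbke lies on mm10 chromosome 1 from 131254602 to 131279563, an interval that includes its introns. Its level with vehicle was 1.42 times that with SAA1, with a 95% interval for the log2 ratio of -0.92 to -0.09, and among the 35 members it ranked 27 by level with vehicle and 31 with SAA1. Tbk1 was at 18.9 and 19.3 FPKM, a log2 ratio of 0.03 ± 0.21. The ratio of Ikbke was below that of Tbk1 by a difference of -0.53, with a 95% interval of -1.11 to 0.06 that includes 0. The interval takes the 2 errors as independent. Both errors are those that the deposited statistic implies, and they are wider than the deposited p-values would give. Whether the pair differs is therefore not settled by this interval. Tank and Azi2, adaptors that bind both kinases, were not called, with Tank at 35.8 and 34.3 FPKM and Azi2 at 28.8 and 24.6 FPKM.

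The call of Ikbke was not kept when its statistic was read on a normal scale. That scale is stricter than the authors' test, which gave all 35 members a smaller p and called 6.52% of tested genes. The recount is therefore no test of whether the call is sound. A two-sided normal p computed from the deposited statistic gave Ikbke an adjusted p of 0.35 (Benjamini-Hochberg over 11403 tested genes with a readable statistic), and then 0 members were called, against 2.17% of those genes. Ikbke was also not called at an adjusted p under 0.01, where 3.8% of tested genes were, or with a fold minimum of 1.5, where 4.69% were. At an adjusted p under 0.1 it was again the only member called, against 8.81% of tested genes.

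The canonical IKK genes were at moderate levels in both groups. Chuk was at 49.7 FPKM with vehicle and 48.7 with SAA1, and Ikbkb at 25.5 and 23.7. Ikbkg, whose locus on the X chromosome is shared with the gene row G6pdx, was at 12.4 and 11.05 FPKM, with the widest error of all members (SE 0.31). SAA1 values were below vehicle for 4 of these 5 kinase and scaffold genes, and the list's median log2 ratio was -0.10, but 4 of the 5 had an adjusted p of at least 0.84 in the authors' deposited table.

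Kinases that receive the receptor signal, and their partner TAB2, held 0 calls among 6 genes in the authors' deposited table (0 had an unadjusted p under 0.05 by Cuffdiff), too few genes to set apart from the 6.52% called over all tested genes. Map3k14, which encodes NIK, the kinase of the non-canonical pathway, was the lowest member with vehicle, at 7.66 FPKM, and at 9.06 with SAA1. Map3k7, which encodes TAK1, the kinase that activates IKK, was at 37.5 and 36.7 FPKM, and Tab2, its ubiquitin-binding partner, at 28.1 and 30.7. The kinases of the IL-1 and Toll-like receptor pathway were Irak1 at 15.5 and 13.8 FPKM, Irak2 at 22.8 and 21.4, and Irak4 at 9.03 and 8.54. All 3 Irak genes had SAA1 values below vehicle, with log2 ratios of -0.17, -0.10 and -0.08. Their adjusted p-values were 0.69, 0.88 and 0.92 in the authors' deposited table. The Irak1 locus also holds the microRNA rows Mir5132 and Mir718.

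TRAF adaptors and the cIAP ubiquitin ligases that bind them link TNF family receptors to the kinases. Traf6, which serves IL-1 and Toll-like receptors, was at 19.96 FPKM with vehicle and 24.8 with SAA1 (log2 ratio 0.31 ± 0.20, adjusted p 0.21 in the authors' deposited table). Birc3, the ligase cIAP2 and itself a known NF-kB target, was at 35.5 and 43.9 FPKM, with a log2 ratio of 0.30 ± 0.20 and an adjusted p of 0.23 per the authors' deposited table. Its chromosomal neighbour Birc2, which encodes cIAP1, was at 24.995 and 25.6 FPKM. Traf1, another known target, was at 47.8 and 45.2 FPKM and was the highest of the TRAF genes. Traf2, the adaptor of TNF receptors, was at 15.7 and 16.4 FPKM, Traf3, which restrains NIK, at 12.5 and 12.8, and Traf5 at 9.12 and 10.9.

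The antigen receptor arm was represented by 2 genes of its signalling complex. Malt1, a scaffold and protease, was at 74.4 FPKM with vehicle and 94.0 with SAA1, and its log2 ratio of 0.34 ± 0.20 was the highest of the 35 members (adjusted p 0.18 in the authors' deposited table). Bcl10, its partner, was at 54.2 and 54.8 FPKM (log2 ratio 0.02 ± 0.20). At an unadjusted p under 0.05 the deposited Cuffdiff test held 4 members, Malt1, Traf6 and Birc3 with SAA1 above vehicle and Ikbke below. These 4 are 11.4% of the members, against 15.8% of all tested genes, of which 8.22% had SAA1 above and 7.62% below. Among genes at or above the lowest member's vehicle level that were tested, 11.6% had such a p. The two-sided normal p of the statistic was under 0.05 for Ikbke alone, and was 0.091 for Malt1, 0.12 for Traf6 and 0.13 for Birc3. For all 35 members the deposited p was below that normal p.

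The feedback genes, which act through the ubiquitin chains of the pathway, held no call. Tnfaip3, which encodes A20, was at 45.5 FPKM with vehicle and 39.6 with SAA1 (log2 ratio -0.20 ± 0.20). Tnip1, which encodes the A20-binding protein ABIN1, was at 31.8 and 34.9 FPKM, and Cyld, a deubiquitinase, at 28.5 and 29.1. Icam1, an adhesion molecule and a known target gene, was at 34.4 and 33.8 FPKM. The authors' deposited table gives them, in that order, an adjusted p of 0.56, 0.78, 0.97 and 0.98.

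**Figure D3:**
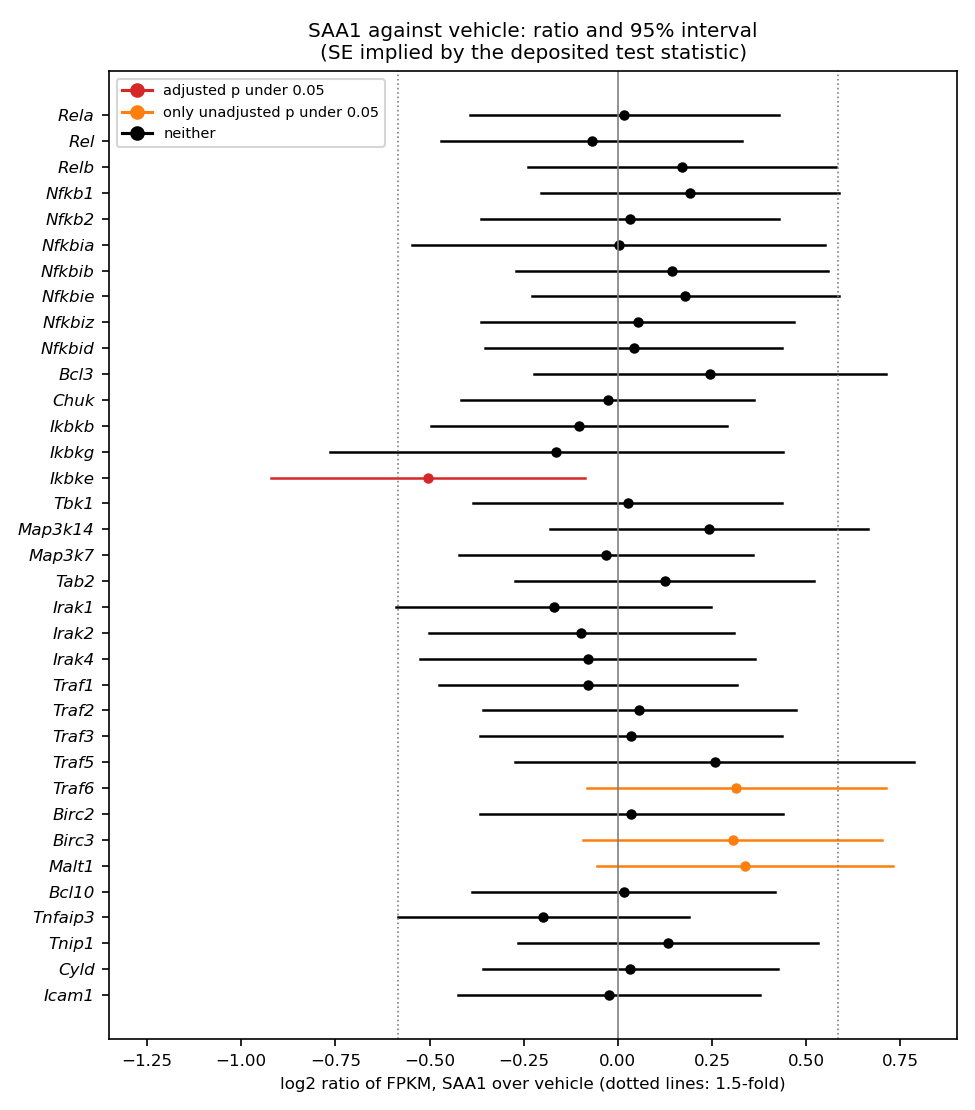
Log2 ratio of FPKM, SAA1 over vehicle, for each of the 35 members, with the 95% interval from the SE implied by the deposited statistic. Dotted lines mark 1.5-fold; Ikbke (red) is the only member with an adjusted p under 0.05 in the authors' deposited table, and Traf6, Birc3 and Malt1 (orange) had only an unadjusted p under 0.05.

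The intervals, from the SE that the deposited statistic implies, bound how large a difference the data could have hidden. They are wider than the deposited p-values would give, since for all 35 members that p was below the normal p. Those of Malt1, Traf6 and Birc3 include 0 although their unadjusted p was under 0.05 by Cuffdiff. For all 34 members that were not called, the 95% interval of the ratio lay within 2-fold in either direction, and for 24 of them within 1.5-fold. The exceptions at 1.5-fold were Nfkb1, Nfkbie, Bcl3, Ikbkg, Map3k14, Irak1, Traf5, Traf6, Birc3 and Malt1. The median SE was 0.20 on the log2 scale, and 18 of the 35 log2 ratios were smaller than 0.1 in size. The largest ratio among members not called was that of Malt1, 1.26-fold. The median log2 ratio of the 35 was 0.03 (with 0.1 FPKM added to both values), beside -0.02 for all 10701 genes with at least 1 FPKM. SAA1 was above vehicle for 23 of the 35 members (65.7%), against 46.1% of those genes. The share was 42.6% among genes at or above the lowest member's vehicle level. The median size of the log2 ratio, in either direction, was 0.10 for the members and 0.14 for all genes with at least 1 FPKM. Among genes at or above the lowest member's vehicle level, it was 0.12.

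**Figure D4:**
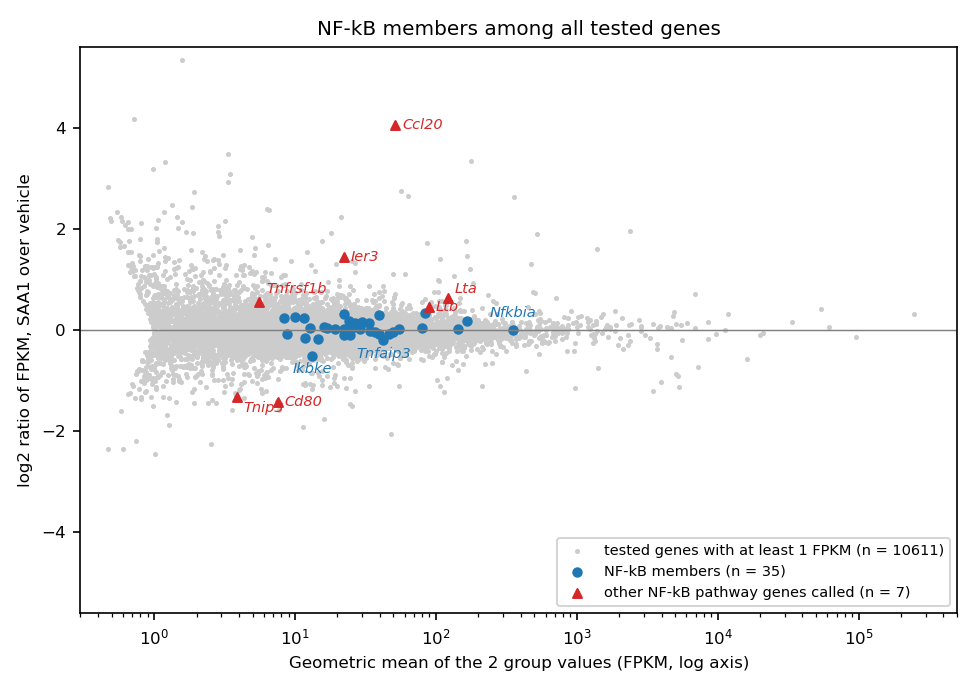
Log2 ratio of FPKM, SAA1 over vehicle, against the geometric mean of the group values (FPKM, log axis) for 10611 tested genes with at least 1 FPKM and a value above 0 in both groups (grey; 5 lie outside the vertical axis). The 35 members (blue) lie between -0.50 and 0.34, while the 7 other NF-kB pathway genes called in the authors' deposited table (red triangles) reach from -1.41 for Cd80 to 4.05 for Ccl20.

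Around the members, 3 further lists of signalling partners, upstream receptors and known target genes held 7 calls among 79 tested genes by the authors' Cuffdiff test, or 8.86% against 6.52% of all tested genes. The lists were chosen with earlier results of these data known, so their shares are descriptive. Of 43 tested partners 0 were called higher and 1 lower (2.33%). That gene was Tnip3, which encodes ABIN3, an A20-binding relative of ABIN1, and it fell from 6.09 to 2.42 FPKM (log2 ratio -1.33 ± 0.26, adjusted p 0.0019 in the authors' deposited table). Nfkbil1 and Map3k1, next in size of ratio among partners with at least 1 FPKM, were not called, with Nfkbil1 at 12.7 and 16.9 FPKM and Map3k1 at 14.4 and 18.3 FPKM. The partners' median log2 ratio was 0.03. Among 16 tested receptors 1 was called higher and 0 lower (6.25%). It was Tnfrsf1b, the TNF receptor TNFR2, which rose from 4.57 to 6.73 FPKM (log2 ratio 0.56 ± 0.23). The authors' deposited table gives it an adjusted p of 0.015. Tlr1 and Tlr2, which pair to sense lipoproteins, were not called, with Tlr1 at 1.63 and 1.09 FPKM and Tlr2 at 1.59 and 2.16 FPKM.

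Calls among the target genes went both ways. By the authors' Cuffdiff test, 4 of 20 tested targets were higher and 1 was lower, which is 25% against 6.52% of all tested genes. The list was chosen with earlier results of these data known, so this share is no test of target genes as a set. Besides Ccl20, Ier3, an immediate early response gene, rose from 13.5 to 36.9 FPKM (log2 ratio 1.45 ± 0.24). The lymphotoxin gene Lta rose from 97.3 to 151 FPKM, and its partner Ltb from 76.2 to 105 FPKM. Cd80, a ligand of CD28 and CTLA-4, fell from 12.3 to 4.61 FPKM (-1.41 ± 0.27). Adjusted p-values were 0.034 for Ltb and 0.0019 for the others, per the authors' deposited table. The value 0.0019 is the smallest adjusted p that the Cuffdiff test gave, so Ccl20, Ier3, Lta, Cd80 and Tnip3 are tied there. The 15 targets not called included Tnf, at 128.1 and 128.3 FPKM. Over the 19 targets with at least 1 FPKM the median log2 ratio was -0.11, with SAA1 above vehicle for 7 and below for 12, so the calls and the median differ in direction. With the normal p of the statistic, Lta (adjusted p 0.069), Ltb (0.41) and Tnfrsf1b (0.30) were no longer called, and Bcl2a1a (0.041), at 0.168 and 3.05 FPKM and a close copy of other Bcl2a1 genes, was.

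**Figure D5:**
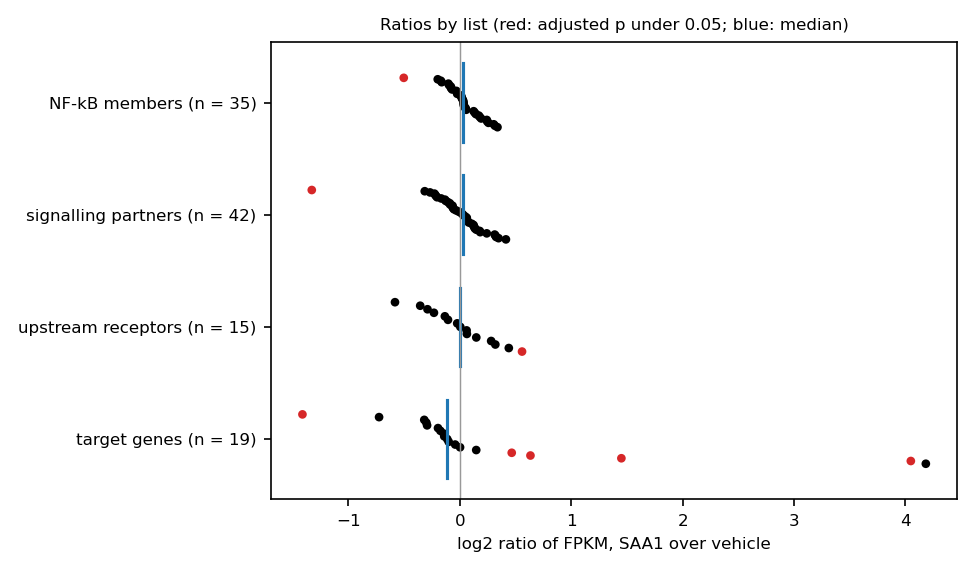
Log2 ratio of FPKM, SAA1 over vehicle, for the genes that reached 1 FPKM with vehicle or SAA1, by list (red, adjusted p under 0.05 in the authors' deposited table; blue line, median; points spread vertically by rank). The 35 members span -0.50 to 0.34 with 1 gene called, the 42 partners hold 1 call at -1.33, the 15 receptors 1 call at 0.56, and the 19 targets 5 calls.

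The labelled cell type was matched by its markers. All 10 T cell markers were at or above 28.2 FPKM in both groups, and they summed to 1797 FPKM with vehicle and 1733 with SAA1. By the authors' Cuffdiff test, 1 of them was called lower, Cd3e at 39.1 and 28.2 FPKM. Another, Thy1, was called higher, at 66.0 and 96.8 FPKM. The Th17 cytokine gene Il17a was at 56.0 FPKM with vehicle and rose to 568 with SAA1. Of 10 myeloid and dendritic markers 1 reached 1 FPKM, Cd68 at 1.58 and 1.05 FPKM, their summed level was 2.32 FPKM with vehicle and 1.58 with SAA1, and C1qa had a listed value of 0 with vehicle and SAA1. The 5 B cell markers summed to 2.01 and 1.53 FPKM, none reaching 1 FPKM. The 5 CD8 and natural killer markers summed to 38.0 and 35.7 FPKM, mostly from Nkg7, with Klrb1c listed at 0 in both groups. The 3 stromal and epithelial markers summed to 4.94 and 4.68 FPKM, mostly from Pecam1. These sums were all lower with SAA1, as Ikbke was. The sum of the 5 Th17 markers, Il17a among them, was higher, at 263.5 FPKM with vehicle and 1580 with SAA1. All 5 were called higher by the authors' Cuffdiff test, against 3.97% of all tested genes. The part of any of these sums in the Ikbke result was not tested.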

How the data were processed

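A single table in Cuffdiff's layout was analysed, in which the authors give each gene row 1 FPKM value per group, made from 2 libraries (total RNA, TruSeq). A test statistic (a score of the ratio over its error), a p-value and a q-value were also deposited by the authors for each tested gene. TopHat2, Cuffdiff, mm9 and mm10 are named, without versions or roles, in the submitters' processing notes; gene starts here are counted from 1 and fall on mm10. The sources used here give no depth, scaling or strand setting, so precision cannot be stated from counts.

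Log2 ratios were recomputed from FPKM, and the SE was taken as the ratio over the statistic, with 1.96 SE as the 95% interval. For all 35 members this interval is wider than the deposited p would give. Adjusting the deposited p by Benjamini-Hochberg over the 11481 tested rows gave the deposited q-value within 5.23e-07. Medians used a pseudocount of 0.1 FPKM, which understates changes of low genes, over genes that reached 1 FPKM with vehicle or SAA1. The adjustment was tested on simulated data. Python 3.11.15, pandas 2.3.3, NumPy 2.4.6 and SciPy 1.17.1 were used.

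Every member is named; of the other lists, called genes are named, or where fewer than 2 were called the 3 with the largest ratio either way among those that reached 1 FPKM. Tank, Azi2, Tnf, Cxcl10, Bcl2l1, Tnfrsf25, Bcl2a1a, Cd3e, Thy1, Cd68, C1qa, Nkg7, Klrb1c, Pecam1 and Il17a were named after their values were seen. Members and lists were chosen with earlier results of these data known. limma or a count test was foreseen only for values per library. Other thresholds, pseudocounts, minimums and centring were tried as alternatives, and the normal p and the removal of shared loci were added after seeing the data. Some genes of the lists are not reported here.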

Additional observations from a re-analysis of the deposited data

How the results depend on the processing

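No paired analysis was possible because the table gives 1 value per group, and for the same reason no library could be left out. The 1 member called became 0 at an adjusted p under 0.01, 0 with a fold minimum of 1.5, 0 with the normal p of the statistic (chosen after seeing the data) and 4 at an unadjusted p under 0.05. It remained 1 at an adjusted p under 0.1, with the adjustment over genes with at least 1 FPKM and without the 5 members that share a locus. Over all tested genes, 15.8% had an unadjusted p under 0.05. The share called was 3.8% at an adjusted p under 0.01 and 4.69% with the fold minimum. With the normal p it was 2.17% of genes with a readable statistic. The 7 other pathway genes called became 19 (24.1% of those tested) at an unadjusted p under 0.05. Their count was 5 at an adjusted p under 0.01, with a fold minimum of 1.5 or with the normal p. The cause of these changes lies in the thresholds themselves, except for the normal p, where the cause was not tested. The members' median log2 ratio ran from 0.03 to 0.05 over the alternatives run for it.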
